A study of Mus musculus with 6 samples.

Results

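The 34 genes described here mark endothelial cells, the lining cells of blood vessels, or take part in vessel growth, and they were measured on 6 arrays of mouse eye tissue at embryonic day 13.5. They were listed by name, with no threshold on a measured value but with earlier results of these data known, and were grouped as 21 pan-endothelial genes, 7 transcription factor genes and 6 genes of sprouting and vessel stabilisation. All 34 had a probe set that the array annotation assigned to that gene alone, out of 12098 genes with such a probe set and a mean log2 level of at least 5. Each gene was read from the brightest of these probe sets. Of the members, 0 lay below that level, and the dimmest were Esm1 (5.15), Angpt2 (5.46) and Tie1 (5.60).

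The arrays held tissue of the albino genotype (n = 3) and were set against tissue of the pigmented control genotype (n = 3), all at embryonic day 13.5. Each array was 1 pool of 3 to 4 littermate embryos, and the labels call the pools of a genotype biological replicates. Which gene carries the albino mutation, and on which strain, is not stated in the labels. By the labels the tissue was retinal pigment epithelium (RPE), the cell sheet between neural retina and choroid, dissected as an eyecup freed of lens, cornea, neural retina and outer tissue, while a description field also names the eye region as a whole. Values are log2 RMA levels, in which 1 unit is a doubling.

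The choroid is the vascular layer that lies against the outer face of the RPE and feeds it. Its capillaries form in the periocular mesenchyme, a tissue of neural crest and mesoderm, and the vascular endothelial growth factor made by the RPE is known to be needed for their growth. Endothelial cells are joined by the cadherin of Cdh5 and the claudin of Cldn5, carry the receptors of Tek, Tie1 and Aplnr, and owe their identity to transcription factors of the ETS and SOXF families. Sprouts are led by tip cells, in which Apln, Esm1, Angpt2 and Pdgfb are typically high.

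The defining endothelial genes Pecam1 and Cdh5 were read with means of 6.91 and 8.47 over the 6 arrays, in tissue labelled as RPE. Genes of neighbouring cell types were read too. Periocular mesenchyme markers had list means of 10.89 to 11.05 on albino arrays and 10.84 to 11.03 on pigmented arrays, over 10 of 12 listed genes. The erythroid gene Hbb-y averaged 14.22 in albino pools and 14.36 in pigmented pools. Of 14 RPE identity genes, 12 were above the filter, and Rpe65 and Rgr lay below it. Of these 12, 11 were lower and 1 higher in albino pools, with a median difference of -0.14, and 4 were lower without overlap (Ttr, Trpm3, Kcnj13 and Mitf). Over all genes, 35.2% were lower and 3.38% were lower without overlap. Mitf differed by only -0.10 (SE 0.08). The transthyretin gene Ttr had the largest difference (-0.56, SE 0.12, limma adjusted p = 0.644), which exceeded that of any endothelial member in size. Skeletal muscle markers separated the genotypes, with list means of 9.43, 9.43 and 8.74 on albino replicates 1, 2 and 3 and of 7.60, 7.27 and 8.22 on pigmented replicates 1, 2 and 3. The mean of 3 Y-linked genes also varied between pools, at 7.47, 7.06 and 7.99 in albino replicates 1 to 3, against 7.39, 2.32 and 5.98 in pigmented replicates 1 to 3. In pooled tissue, fewer endothelial cells and less of a transcript per cell cannot be told apart.

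**Figure D1:**
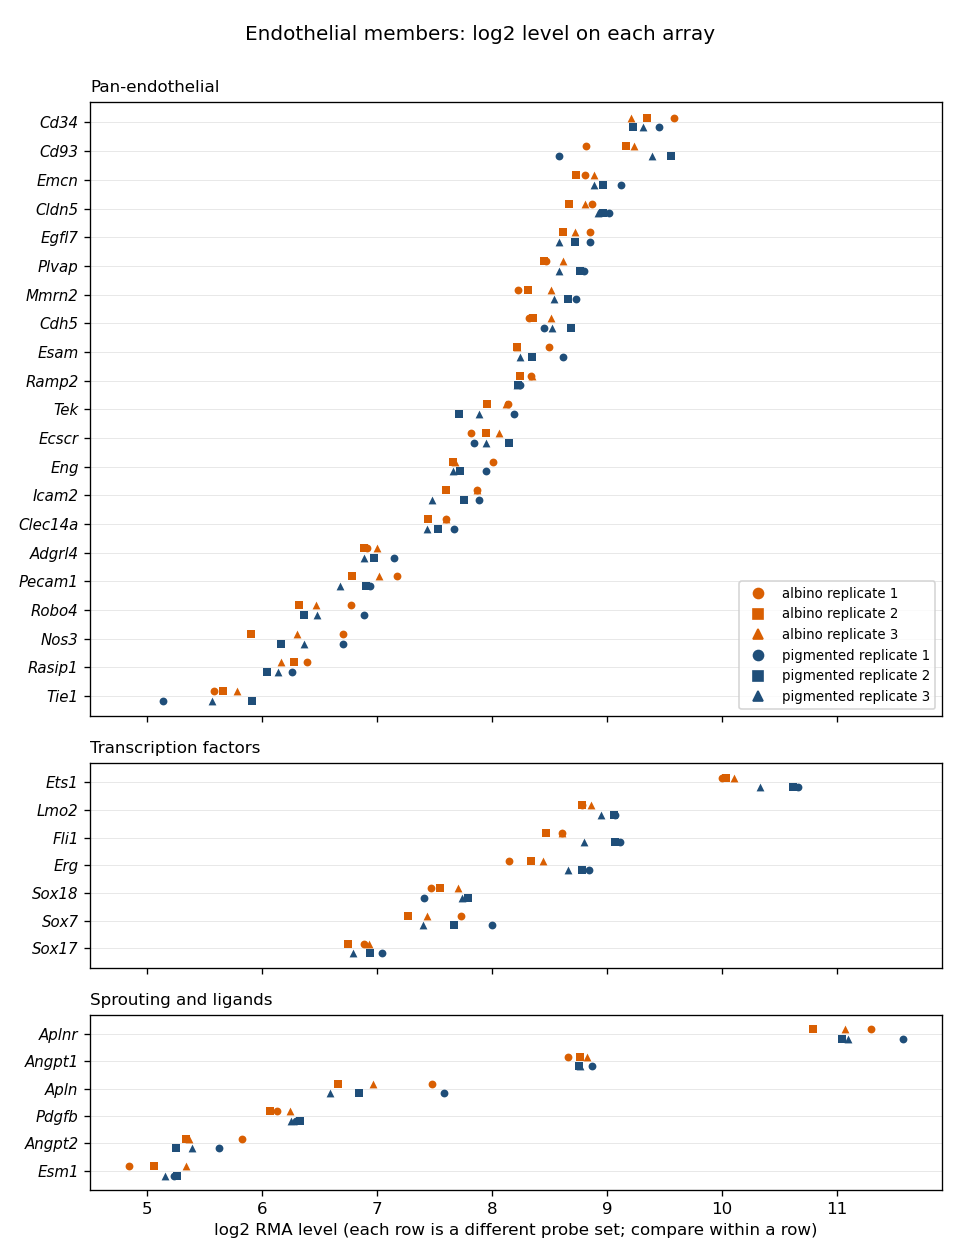
Log2 RMA level (x axis) of each of the 34 members (rows, grouped by class and ordered by mean level) on the 3 albino arrays (orange, upper points of a row) and the 3 pigmented arrays (blue, lower points). Points of the genotypes interleave in most rows, and the albino points of Ets1, Fli1 and Erg all lie to the left of the pigmented points.

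The genotypes were compared as albino minus pigmented, with limma across all 23591 probe sets above the filter. By the brightest probe set, all 7 transcription factor genes lay lower in albino pools, where 35.2% of all genes did. Pan-endothelial and sprouting genes had differences of both signs. A dimmer probe set of Sox7 (0.02), Sox17 (0.13), Fli1 (0.04) and Ets1 (0.11) was higher, while those of Erg (-0.06) and Ets1 (-0.39 and -0.03) were lower. The median log2 difference was -0.04 over the 21 pan-endothelial genes, -0.22 over the 7 transcription factor genes and -0.09 over the 6 sprouting genes, against 0.04 over all 12098 genes. None of the 34 members passed the adjusted threshold of 0.05 (0 of 34, limma, Benjamini-Hochberg over all probe sets), and the share of all probe sets that passed was 0%. The smallest adjusted p among members was 0.721.

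Before adjustment, 5 of 34 members (14.7%) had a limma p under 0.05 with a lower level in albino pools, namely Ets1, Erg, Fli1, Lmo2 and Mmrn2. The share over all genes on that side was 1.31%, and 4.68% of all probe sets were under 0.05 in either direction. On the higher side, 0 of 34 members reached it, against 3.47% of all genes. Without albino replicate 1, albino replicate 2 or pigmented replicate 2, 3 members remained under 0.05, and these were Ets1, Erg and Fli1 each time. With all probe sets of a gene averaged, 2 members were under 0.05, Erg and Lmo2, and neither Ets1 nor Fli1 was. With the replicate number as a block, 7 members were under 0.05, all lower, while the share of all genes on the lower side was 5.54%.

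Every albino array lay below every pigmented array for 7 of 34 members (20.6%), against 3.38% of all genes. These were the 5 above with Cldn5 and Pdgfb. The opposite order, every albino array above every pigmented array, held for 0 members and 7.97% of all genes. In all, 22 members (64.7%) lay lower and 12 (35.3%) higher in albino pools, where 35.2% of all genes lay lower. The share of all genes depended on single arrays, at 54.6% without albino replicate 1, where 8 members were higher, and 24.9% without pigmented replicate 1, where 15 were. After cyclic loess scaling of the arrays, 8 members (23.5%) were higher and 48.2% of all genes lower.

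**Figure D2:**
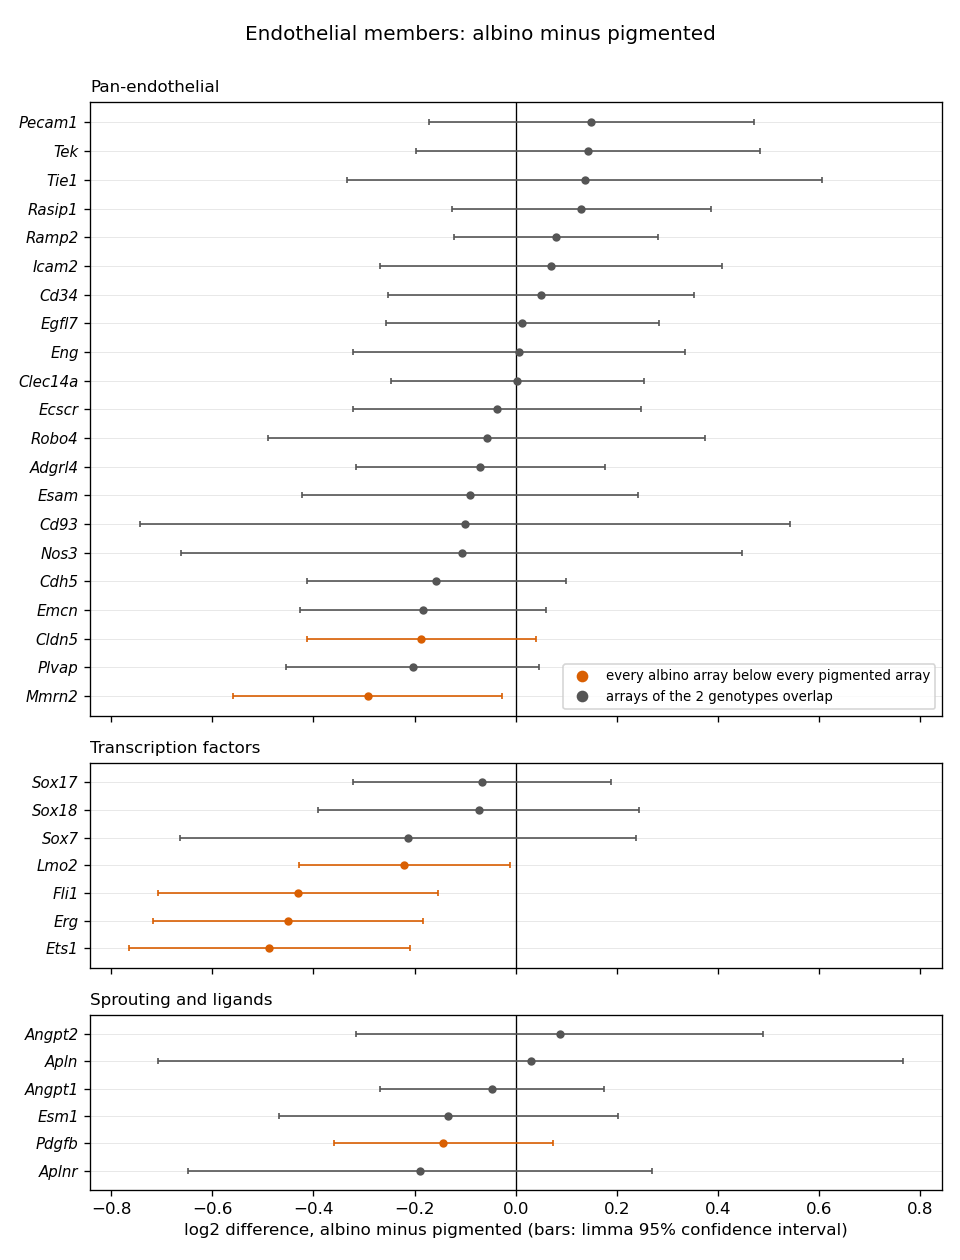
Log2 difference, albino minus pigmented (x axis), of each member (rows, by class), with the limma 95% confidence interval as a bar. Orange marks the 7 members whose albino arrays all lay below the pigmented arrays. The intervals of Ets1 (-0.77 to -0.21), Erg (-0.72 to -0.18) and Fli1 (-0.71 to -0.15) lie farthest from 0, and the pan-endothelial members spread to both sides of it.

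Among the transcription factor genes, the ETS family members Erg, Fli1 and Ets1 differed most. Their proteins bind DNA at a GGAA core and are known to switch on genes such as Cdh5 in endothelium. Ets1 and Fli1 are also active in neural crest derivatives and blood cells, and Erg in cartilage precursors, so these levels need not come from endothelium alone.

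Ets1 stood at 10, 10.04 and 10.11 in albino pools, against 10.66, 10.62 and 10.33 in pigmented pools. The 2 genotypes did not overlap, and pigmented replicate 3 came nearest the albino arrays. The albino mean was 10.05 ± 0.06 and the pigmented mean 10.54 ± 0.18 (SD, n = 3 each). This is a difference of -0.49 (SE 0.12, limma adjusted p = 0.721), or 0.714-fold.

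Erg read 8.15, 8.34 and 8.44 in albino pools, against 8.84, 8.78 and 8.66 in pigmented pools. Again the highest albino array, replicate 3, lay below the lowest pigmented array, also replicate 3. The difference was -0.45 (SE 0.11, limma adjusted p = 0.728), or 0.732-fold.

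Fli1 had 8.61, 8.47 and 8.61 in albino pools, against 9.11, 9.07 and 8.80 in pigmented pools. Its difference was -0.43 (SE 0.12, limma adjusted p = 0.820). Fli1 and Ets1 are neighbours on mouse chromosome 9, with 0 protein-coding genes between them in the RefSeq annotation, while Erg lies on chromosome 16.

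The difference was smallest between the arrays numbered 3 for each of these genes. Over the 3 genes together, albino minus pigmented was -0.62 between the arrays numbered 1, -0.54 between those numbered 2 and -0.21 between those numbered 3. Skeletal muscle list means differed in the opposite direction by 1.83, 2.16 and 0.52 between the same arrays. RPE identity means differed in the same direction as the ETS genes, by -0.20, -0.24 and -0.05, and platelet marker means by -0.20, -0.09 and -0.03, both least between the arrays numbered 3. Periocular mesenchyme means differed by 0.02, 0.09 and -0.03, macrophage means by 0.12, 0.15 and 0.17, and mural means by 0.13, 0.24 and 0.04. Pan-endothelial means differed by -0.04, -0.13 and 0.07, sprouting means by -0.16, -0.13 and 0.09, and SOXF means by -0.12, -0.28 and 0.04. The shift between the arrays numbered 3 was therefore not particular to the ETS genes. The part of RPE, muscle, mural, platelet, mesenchyme or macrophage content in the ETS values was not tested. With the Y-linked mean as a covariate the differences were -0.47 for Ets1, -0.47 for Erg and -0.42 for Fli1 (limma adjusted p = 0.999 each). That covariate turned the sign of 10 of 34 members and put 56.2% of all genes lower, against 35.2% without it. The Y-linked mean was lowest in pigmented replicates 2 and 3, so it overlaps with genotype, and the part of pool sex was not tested.

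Not every probe set of these genes showed the difference. Of their 8 probe sets, 4 had all albino arrays below all pigmented arrays, and these were the brighter ones, with means of 8.54 to 10.29. A second Ets1 probe set read 9.47, 9.75 and 9.83 in albino pools, against 10.07, 10.15 and 10.01 in pigmented pools (difference -0.39, SE 0.12, limma adjusted p = 0.923). The other 4, with means of at most 6.85, differed by -0.06 to 0.11 and overlapped between the genotypes. With all probe sets of a gene averaged, the differences were -0.25 for Erg, -0.20 for Ets1 and -0.20 for Fli1. Probe sets of 1 gene can read different transcript ends, and which of them follows the whole transcript was not tested.

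**Figure D3:**
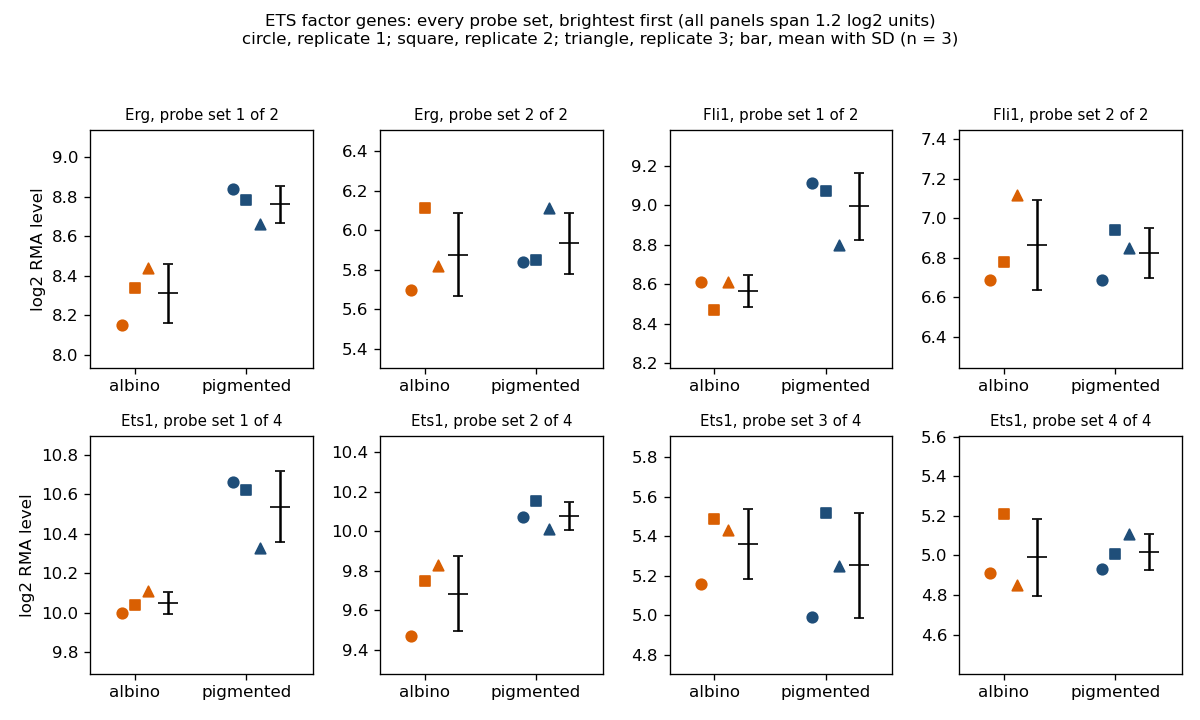
Log2 RMA level (y axis, the same span in every panel) of each probe set of Erg, Fli1 and Ets1 on the albino arrays (orange, left) and pigmented arrays (blue, right), with the mean and SD over 3 arrays in black. The genotypes are apart for the brightest probe set of each gene and the second of Ets1, and overlap for the other 4.

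Promoter windows of GRCm38.p6 from RefSeq, 250 bases before to 50 bases after the gene start, were available for 14 members and searched on both strands for the ETS cores CAGGAAG and CCGGAAG, for AACAAT, the SOX core, and for AGATAA, the GATA core. CAGGAAG was found for 7 of the 14 members (50%) and for 14.8% of all 27025 genes with a window, CCGGAAG for 0 and 9.93%, AACAAT for 3 (21.4%) and 12.2%, and AGATAA for 2 (14.3%) and 12.7%. The members with CAGGAAG were Erg, Egfl7, Emcn, Cd34, Robo4, Rasip1 and Apln. Erg and Egfl7 each had 3 windows, which gave them more sequence to match. A match in these letters is a description and not a measured binding site. The windows below are shown because they put the ETS core in an ETS gene (Erg, chr16:95459299-95459598, minus strand), in 2 vessel surface genes (Emcn, chr3:137340828-137341127, plus strand; Robo4, chr9:37401722-37402021, plus strand) and in a sprouting gene (Apln, chrX:48034804-48035103, minus strand). Capitals mark CAGGAAG or its reverse complement CTTCCTG, and each line runs 5′ to 3′ on the strand of the gene.
Erg: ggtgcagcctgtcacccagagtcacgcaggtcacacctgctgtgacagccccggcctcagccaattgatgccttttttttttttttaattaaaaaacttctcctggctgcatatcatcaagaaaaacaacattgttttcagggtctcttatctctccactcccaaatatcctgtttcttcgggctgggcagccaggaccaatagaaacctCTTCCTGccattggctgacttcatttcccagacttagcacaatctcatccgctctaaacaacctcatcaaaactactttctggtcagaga
Emcn: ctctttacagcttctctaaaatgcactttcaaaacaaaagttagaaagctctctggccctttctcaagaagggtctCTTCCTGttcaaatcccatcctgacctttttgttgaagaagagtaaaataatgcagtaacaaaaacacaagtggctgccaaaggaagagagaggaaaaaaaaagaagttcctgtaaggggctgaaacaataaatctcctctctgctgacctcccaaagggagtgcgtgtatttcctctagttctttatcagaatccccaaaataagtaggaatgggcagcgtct
Robo4: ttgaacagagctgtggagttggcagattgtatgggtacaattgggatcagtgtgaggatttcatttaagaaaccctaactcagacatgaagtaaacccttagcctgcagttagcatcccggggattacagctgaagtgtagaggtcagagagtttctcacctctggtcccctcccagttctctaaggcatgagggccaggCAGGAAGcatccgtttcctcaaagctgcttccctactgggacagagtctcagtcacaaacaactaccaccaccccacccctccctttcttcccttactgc
Apln: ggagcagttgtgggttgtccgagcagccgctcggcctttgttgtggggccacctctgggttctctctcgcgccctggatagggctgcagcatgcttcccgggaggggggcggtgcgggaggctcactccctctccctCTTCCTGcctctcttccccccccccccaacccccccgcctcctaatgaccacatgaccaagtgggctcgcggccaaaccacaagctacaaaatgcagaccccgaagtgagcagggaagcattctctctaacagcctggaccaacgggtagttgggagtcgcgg
The core began 40 bases before the gene start in Erg, 174 in Emcn, 50 in Robo4 and 113 in Apln. The genes of these windows had log2 differences of -0.45 for Erg, -0.18 for Emcn, -0.06 for Robo4 and 0.03 for Apln. Of these, only the interval of Erg left out 0. The other members with CAGGAAG differed by 0.01 for Egfl7 (SE 0.11), 0.05 for Cd34 (SE 0.13) and 0.13 for Rasip1 (SE 0.11). Each of their intervals included 0, so no direction is read from them. The sign turned in 6 of 18 alternatives for Egfl7, 2 for Cd34 and 0 for Rasip1. The other 3 probe sets of Egfl7 were lower in albino pools (-0.02, -0.05 and -0.05).

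Lmo2, a cofactor gene of blood and vessel development, read 8.78, 8.78 and 8.86 in albino pools, against 9.07, 9.06 and 8.95 in pigmented pools. The groups did not overlap, and the difference was -0.22 (SE 0.09, limma adjusted p = 0.999). It kept its sign under each alternative tried, from -0.26 to -0.18.

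The SOXF genes Sox7, Sox17 and Sox18, which act together in arterial and lymphatic specification, also lay lower on average, but their arrays overlapped. Sox7 stood at 7.73, 7.27 and 7.43 in albino pools and at 8.0, 7.67 and 7.40 in pigmented pools (difference -0.21, SE 0.19). Sox18 stood at 7.47, 7.55 and 7.70 in albino pools and at 7.41, 7.79 and 7.74 in pigmented pools (-0.07, SE 0.13). Sox17, the dimmest factor, had 6.89, 6.75 and 6.93 in albino pools and 7.04, 6.94 and 6.79 in pigmented pools (-0.07, SE 0.11), and its other probe set had the opposite sign (0.13). For none of the 3 did the interval leave out 0.

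With the ETS genes set aside, 19 of the 31 other members lay lower in albino pools and their median difference was -0.07. The ETS genes were singled out after their values were seen, so this split is a description. The median over the 7 transcription factor genes was -0.36 without pigmented replicate 3 and -0.34 without albino replicate 1.

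Junction and surface genes of endothelium gave differences of either sign. The median of the 21 pan-endothelial genes had the opposite sign without albino replicate 2 (0.06) and without pigmented replicate 1 (0.04). Pecam1, an adhesion gene of endothelium, platelets and leukocytes, had the largest positive difference of the class, with 7.17, 6.78 and 7.02 in albino pools and 6.94, 6.90 and 6.68 in pigmented pools (0.15, 95% interval -0.17 to 0.47). Its arrays overlapped.

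Cdh5, the cadherin gene of endothelial junctions, read 8.32, 8.36 and 8.51 in albino pools and 8.45, 8.69 and 8.52 in pigmented pools. Albino replicate 3 lay between pigmented replicates 1 and 3, and the difference was -0.16 (95% interval -0.41 to 0.10). Cldn5, the gene of the tight junction claudin of endothelium, read 8.87, 8.67 and 8.81 in albino pools and 9.02, 8.97 and 8.92 in pigmented pools. Its groups did not overlap, but the interval of the difference reached past 0 (-0.19, 95% interval -0.41 to 0.04, limma adjusted p = 0.999). With the replicate block its unadjusted p was under 0.05 and its limma adjusted p was 0.251.

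Mmrn2, the gene of a matrix protein that coats endothelium, had the largest negative difference of the class. It stood at 8.23, 8.31 and 8.51 in albino pools, against 8.73, 8.66 and 8.54 in pigmented pools (-0.29, SE 0.11, limma adjusted p = 0.999). The arrays numbered 3 differed by only -0.03, against -0.50 and -0.35 for those numbered 1 and 2. All 4 of its probe sets were lower in albino pools, with differences of -0.29 to -0.02, and 3 of them did not overlap.

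Plvap encodes the protein of the diaphragms in fenestrated capillaries, the kind that the mature choriocapillaris has. It read 8.47, 8.45 and 8.62 in albino pools and 8.80, 8.77 and 8.58 in pigmented pools. Pigmented replicate 3 lay among the albino arrays, and the difference was -0.20 (95% interval -0.45 to 0.05). Emcn, a sialomucin gene of venous and capillary endothelium, differed by -0.18 (95% interval -0.43 to 0.06).

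The angiopoietin receptor gene Tek read 8.14, 7.96 and 8.12 in albino pools and 8.19, 7.71 and 7.89 in pigmented pools (0.14, 95% interval -0.20 to 0.48). Its partner Tie1, the dimmest of the class, read 5.58, 5.66 and 5.78 in albino pools and 5.14, 5.91 and 5.56 in pigmented pools (0.14, 95% interval -0.33 to 0.61). Both overlapped between the genotypes, and the sign for Tie1 turned without pigmented replicate 1 (-0.06).

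Cd34, a sialomucin gene shared with mesenchymal and blood progenitors, was the brightest of the class. It read 9.58, 9.35 and 9.21 in albino pools and 9.45, 9.23 and 9.31 in pigmented pools (0.05, 95% interval -0.25 to 0.35). Eng, a co-receptor gene for BMP9, differed by 0.01 (95% interval -0.32 to 0.34). The second, dimmer Eng probe set was lower on every albino array than on any pigmented array (-0.13, SE 0.09, limma adjusted p = 0.999). Egfl7, the gene of a secreted matrix factor, differed by 0.01 (95% interval -0.26 to 0.28), and the interval for Clec14a, a surface lectin gene, was -0.25 to 0.25. The second Clec14a probe set differed by -0.14 (SE 0.16), with overlap.

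The remaining 9 pan-endothelial genes differed by -0.11 to 0.13, and their arrays overlapped. They were Nos3, which encodes endothelial nitric oxide synthase (-0.11, SE 0.23), the adhesion genes Esam (-0.09) and Icam2 (0.07), the guidance receptor gene Robo4 (-0.06), Ramp2, a gene of the adrenomedullin receptor (0.08), Rasip1, a gene of vessel lumen formation (0.13), Adgrl4 (-0.07), Ecscr (-0.04) and Cd93 (-0.10, SE 0.27), a lectin receptor gene whose value depended on replicate 1, as given with the replicates.

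Of the sprouting and ligand genes, 4 lay lower and 2 higher in albino pools. Aplnr, the apelin receptor gene, was the brightest member of all and is also active in mesoderm. It stood at 11.30, 10.79 and 11.07 in albino pools and at 11.58, 11.05 and 11.10 in pigmented pools. The groups overlapped, with a difference of -0.19 (95% interval -0.65 to 0.27), although each albino array was lower than the pigmented array of its number. The size rested on single arrays, at -0.02 without pigmented replicate 1, -0.06 without albino replicate 2 and -0.31 without albino replicate 1. With the replicate block its limma adjusted p was 0.278.

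Apln, the X-linked gene of its ligand, read 7.48, 6.66 and 6.96 in albino pools and 7.58, 6.84 and 6.59 in pigmented pools. The difference of 0.03 was small beside its 95% interval (-0.71 to 0.77), the widest of all members. The pools also differed in their Y-linked levels, given above.

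Angpt1, the Tek agonist gene made mainly by mesenchyme and mural cells, read 8.66, 8.77 and 8.83 in albino pools and 8.87, 8.76 and 8.77 in pigmented pools (-0.05, 95% interval -0.27 to 0.17). Angpt2, the gene of the context-dependent Tek antagonist, read 5.82, 5.34 and 5.36 in albino pools and 5.62, 5.25 and 5.39 in pigmented pools (0.09, 95% interval -0.32 to 0.49). Neither ligand separated the genotypes.

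Pdgfb, which encodes the factor that draws pericytes to new vessels, read 6.13, 6.07 and 6.24 in albino pools and 6.29, 6.33 and 6.25 in pigmented pools. The groups did not overlap, by 0.01 between the arrays numbered 3, and the difference was -0.14 (SE 0.09, limma adjusted p = 0.999). Esm1, a tip cell gene and the dimmest member, read 4.84, 5.06 and 5.34 in albino pools and 5.23, 5.26 and 5.15 in pigmented pools (-0.13, 95% interval -0.47 to 0.20).

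A further 25 endothelial genes were listed for comparison, and 21 were above the filter, with Gja5, Bmx, Nostrin and Kcne3 below it. Over these 21, 17 lay lower and 4 higher in albino pools, where 35.2% of all genes lay lower and 63.8% higher. Of the 21, 0 passed the adjusted threshold, and the median difference was -0.06. The VEGF receptor genes differed little, Kdr by -0.02 (SE 0.15) and Flt1 by 0.10 (SE 0.17). The dimmer Flt1 probe sets had the opposite sign (-0.09, -0.12 and -0.13), and the genotypes overlapped on each. Tm4sf1, a surface protein gene, read 8.66, 8.45 and 8.34 in albino pools and 8.34, 7.74 and 8.09 in pigmented pools (0.43, SE 0.17). Ctla2a, a protease inhibitor gene, read 7.56, 7.84 and 7.80 in albino pools and 7.98, 8.16 and 7.92 in pigmented pools (-0.29, SE 0.12), without overlap. These 2 had an unadjusted limma p under 0.05 without the replicate block, and the next smallest belonged to Vwf, the von Willebrand factor gene (-0.26, SE 0.14), and Thbd, the thrombomodulin gene (-0.28, SE 0.16). With the block, 6 of the 21 were under 0.05, of which Vwf had the smallest p, 1 was higher (Tm4sf1) and 5 were lower (Vwf, Thbd, Ctla2a, Nrp1 and Acvrl1). Over all genes, the fit without the block put 3.47% under 0.05 on the higher side and 1.31% on the lower side. With the block these shares were 11.3% and 5.54%.

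Cells that accompany vessels were read from the same arrays. Of 12 mural markers, 7 were higher and 5 lower in albino pools, with a median difference of 0.11. Acta2, an actin gene of smooth muscle that developing skeletal muscle also uses, differed most (1.11, SE 0.25, limma adjusted p = 0.647), while the pericyte receptor gene Pdgfrb differed by -0.25 (SE 0.11). Of the other mural markers, Rgs5 was also lower (-0.27), while Cspg4 (0.34), Kcnj8 (0.26) and Abcc9 (0.26) were higher. The 6 platelet markers had 0 higher, 5 lower and 1 equal, the 8 tested erythroid markers 5 higher and 3 lower, and the 12 macrophage markers 10 higher and 2 lower, with a macrophage median of 0.14. Over all genes, 63.8% were higher and 35.2% lower. The defining lymphatic gene Prox1 lay below the filter, while Lyve1 differed by -0.10 and Flt4 by -0.10. None of these genes passed the adjusted threshold, and their part in the endothelial values was not tested.

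**Figure D4:**
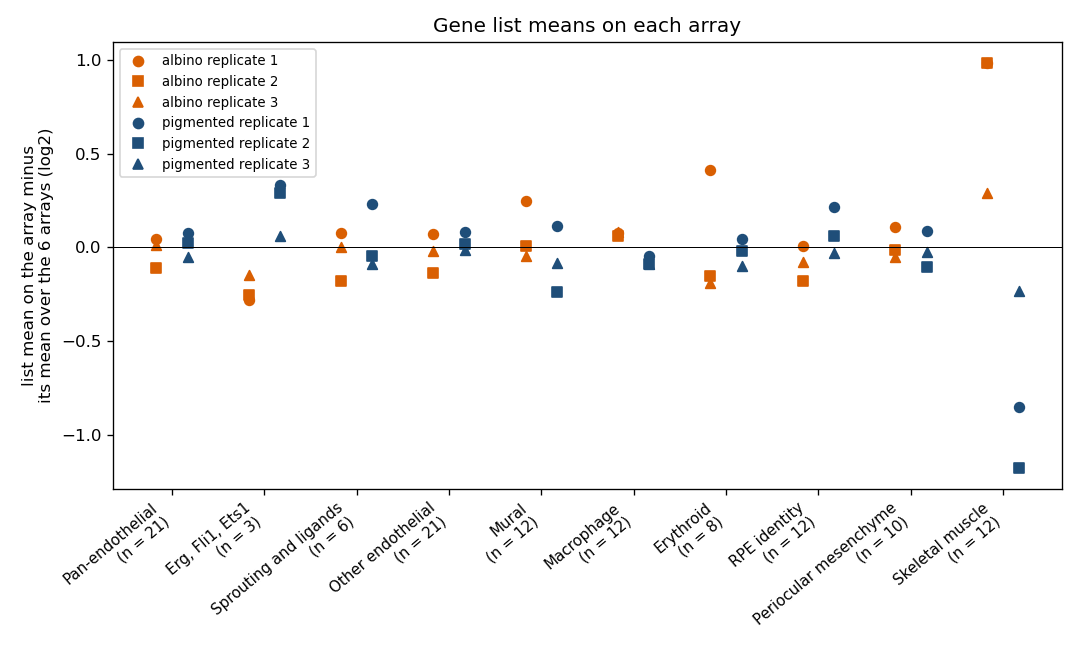
Mean log2 level of each gene list on an array minus its mean over the 6 arrays (y axis), for albino arrays (orange, left of each pair) and pigmented arrays (blue, right), with the number of tested genes in brackets. Pan-endothelial means of the genotypes interleave, the means of Erg, Fli1 and Ets1 are lower on all 3 albino arrays, and the skeletal muscle means are higher on them.

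Some members differed more between replicate 1 and the other arrays than between the genotypes. On replicate 1 arrays, 19 of 34 members (55.9%) read higher than the mean of replicates 2 and 3 in both genotypes, and 5 (14.7%) read lower in both. Over all genes these shares were 68.8% and 14.7%. Apln had the largest positive differences, by 0.67 in albino and 0.87 in pigmented pools, and its receptor gene Aplnr by 0.37 and 0.51. Nos3 was higher by 0.60 and 0.44, Robo4 by 0.38 and 0.47, Sox7 by 0.38 and 0.47, and Angpt2 by 0.47 and 0.30. What replicate 1 shares is not given in the labels.

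Cd93 went the other way, lower on replicate 1 by 0.39 in albino and 0.90 in pigmented pools. Its brightest probe set read 8.82, 9.17 and 9.24 in albino pools and 8.58, 9.56 and 9.39 in pigmented pools. Its albino minus pigmented difference of -0.10 was -0.40 without pigmented replicate 1, -0.27 without both replicate 1 arrays and 0.03 without albino replicate 1, and the limma adjusted p was 0.362 or above in each. A second probe set of the gene showed no such drop, with 8.70, 8.62 and 8.64 in albino pools and 8.93, 8.70 and 8.71 in pigmented pools. A dimmer one below the filter did drop, with 3.37, 4.97 and 4.95 in albino pools and 3.50, 5.19 and 4.72 in pigmented pools. The remaining Cd93 probe sets, also below the filter, were not lower on replicate 1 in both genotypes. Tie1 (-0.14 and -0.60) and Sox18 (-0.16 and -0.36) were also lower on replicate 1. Among the 16 members with several probe sets, all probe sets had 1 sign between genotypes in 7 and both signs in 9.

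**Figure D5:**
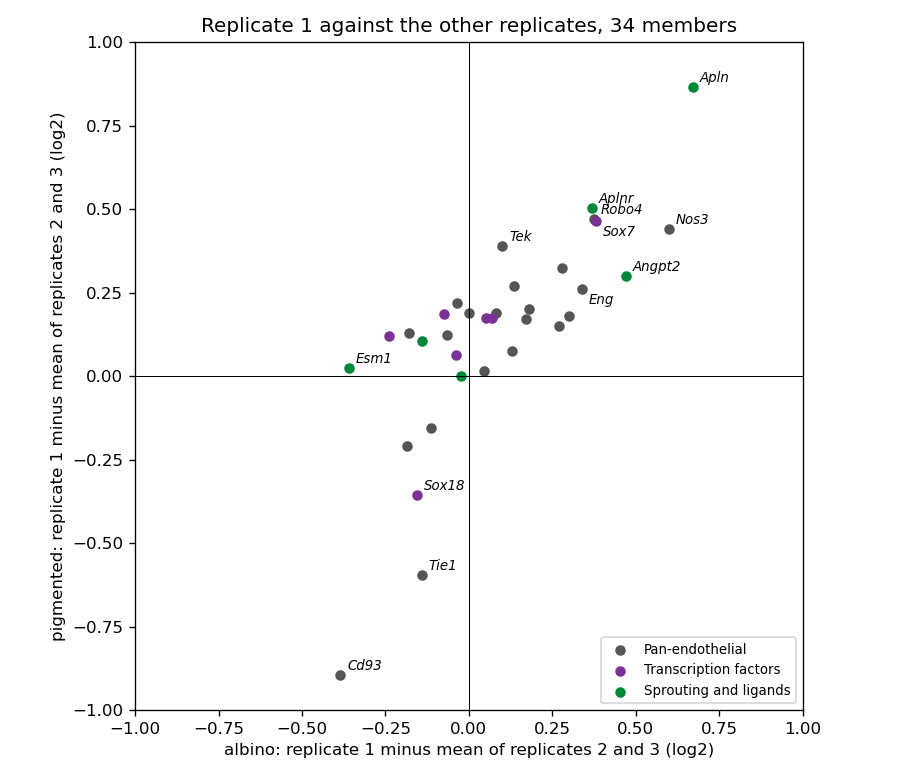
Replicate 1 minus the mean of replicates 2 and 3 (log2), in albino pools (x axis) and pigmented pools (y axis), 1 point a member, coloured by class. Apln lies at the upper right (0.67, 0.87) and Cd93 at the lower left (-0.39, -0.90), and most points lie in the quadrants where both genotypes have the same sign.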

How the data were processed

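RNA from 3 albino and 3 pigmented pools was measured on expression arrays from 100 ng of total RNA, labelled by priming from the 3′ end, per the labels' protocols. The deposited values are log2 RMA levels of 45101 probe sets, made with Affymetrix Expression Console 1.1 and RMA, per the submitters' processing notes. RMA includes quantile normalization, so differences are relative to the other probe sets. Precision is limited by having 6 arrays.

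The annotation named 1 gene for 34945 probe sets, several for 932 and none for 9160. After removal of 64 control probe sets and of all whose 6-array mean was under 5, 23591 stayed in the test. The test was two-sided limma (version 3.58.1, R 4.3.3, lmFit with eBayes), Benjamini-Hochberg adjusted over all probe sets. All p-values and intervals come from limma, and the code was checked on simulated data. Among probe sets naming a gene alone, the brightest stood for the gene. Full values were given for members under an unadjusted p of 0.05 or without overlap, for the extremes of each class by level and difference, and for 12 fixed genes. The rest were summarised, while Sox7 and Cd93 were added with their values already in view. The members, classes and lists were chosen with earlier results of these data known.

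The labels give both genotypes replicate numbers 1, 2 and 3. Deviations from the genotype means correlated at 0.863, 0.687 and 0.448 between arrays of the same number. Arrays of different numbers were not correlated, so these values cannot show whether the numbers pair the arrays, and no label explains them. SEs, intervals and p-values come from the fit without a replicate block, and blocked values are named as such. A protein comparison that was planned was not made, because no protein sequences were used here.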

Additional observations from a re-analysis of the deposited data

How the results depend on the processing

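The comparison was repeated under 18 alternatives, of which the Y-linked covariate and the block for replicate 1 against the other arrays were chosen after seeing the data. In each limma fit 0 members passed the adjusted threshold, as did 0 probe sets wherever probe sets were tested singly, with the smallest adjusted p over all probe sets at 0.50 in the unblocked fit and 0.192 with the replicate block. The smallest adjusted p of a member was 0.109, with the block for replicate 1. The replicate block changed no call. Of 609 member values under the alternatives, 605 moved by less than the SD between replicates, taken from the genotype with the larger SD. The other 4 were Erg (-0.25), Ets1 (-0.20) and Fli1 (-0.20) with probe sets averaged and Sox17 (0.13) without the _x_at and _s_at types of probe set. Many of the 605 could not move. Either block, dropping the filter, raising it to a mean of 6 and other eBayes options leave each difference as it was. Averaging cannot move the 18 members with 1 probe set. The count of 605 is therefore not a measure of how stable the values are. The sign turned in 55 values, and 15 members kept their sign throughout, Erg, Fli1, Ets1, Lmo2 and Mmrn2 among them. No alternative read Fli1 or Ets1 only from the dimmer probe sets that were higher in albino pools, so a kept sign does not cover those. Leaving out 1 array at a time gave medians of -0.05 to 0.06 for pan-endothelial, -0.36 to -0.20 for transcription factor and -0.16 to -0.02 for sprouting genes, and 8 to 15 members higher in albino pools. Without both replicate 1 arrays the medians were -0.02, -0.19 and 0.01. Ets1 gave -0.59 to -0.43, Erg -0.52 to -0.37 and Fli1 -0.53 to -0.37 when 1 array was left out.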
